A study of Mus musculus with 12 samples.

Results

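The fibrillar collagens are the collagens that assemble into banded fibrils, and their transcripts were followed here in mouse abdominal aorta by RNA-Seq. The 10 members were Col1a1, Col1a2, Col2a1, Col3a1, Col5a1, Col5a2, Col5a3, Col11a1, Col24a1 and Col27a1, found by mouse gene symbol among 55092 features, and each had 1 row. RNA came from 12 male mice in 4 groups of 3, and every mouse carried floxed CCN2 alleles and received 5 doses of tamoxifen from 8 weeks of age, then a 2-week washout. CCN2SMC∆ mice also carried Myh11-Cre-ERT2, a tamoxifen-inducible Cre driven by the smooth muscle myosin heavy chain promoter, so that CCN2 was to be deleted in smooth muscle cells (SMC) and left intact in other cells of the wall. CCN2fl/fl mice had no Cre. Mini-osmotic pumps then delivered saline (CFS, CCN2fl/fl; CSS, CCN2SMC∆) or angiotensin II (Ang II) at 500 ng/kg/min (CFA, CCN2fl/fl; CSA, CCN2SMC∆) for 7 days, a model of abdominal aortic aneurysm.

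A fibrillar collagen is made as a procollagen of 3 chains wound into a triple helix, trimmed at both ends outside the cell and cross-linked into fibrils. Type I (chains from Col1a1 and Col1a2) and type III (Col3a1) form the bulk of arterial fibrils and bear tension in the wall. Type V (Col5a1, Col5a2 and Col5a3) and type XI (here Col11a1) are minor collagens that nucleate fibrils and limit their diameter, and type II (Col2a1, with Col11a1 as its usual partner) is the collagen of cartilage. Types XXIV (Col24a1) and XXVII (Col27a1) are minor fibrillar collagens known mainly from bone and cartilage.

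The stretches just before the transcription start are shown for 4 members whose transcripts were higher together in CSA, because the level of a transcript is set in part there. They are RefSeq sequences of the GRCm38.p6 build, 250 bases long, read 5′ to 3′ in the direction of the gene. The starts are those of RefSeq, and for Col1a2 and Col27a1 the stretch searched lies inside the gene span given below. Capitals mark CCAAT, the box bound by nuclear factor Y (ATTGG where it lies on the opposite strand), and TATAAA, the letters of a TATA box, wherever they lie in the window.
Col1a2, chr6:4505368-4505617, plus strand: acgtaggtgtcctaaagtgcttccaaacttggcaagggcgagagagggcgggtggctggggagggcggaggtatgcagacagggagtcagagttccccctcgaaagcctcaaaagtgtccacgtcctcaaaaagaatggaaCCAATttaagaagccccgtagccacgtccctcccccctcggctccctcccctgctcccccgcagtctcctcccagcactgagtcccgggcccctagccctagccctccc
Col3a1, chr1:45311288-45311537, plus strand: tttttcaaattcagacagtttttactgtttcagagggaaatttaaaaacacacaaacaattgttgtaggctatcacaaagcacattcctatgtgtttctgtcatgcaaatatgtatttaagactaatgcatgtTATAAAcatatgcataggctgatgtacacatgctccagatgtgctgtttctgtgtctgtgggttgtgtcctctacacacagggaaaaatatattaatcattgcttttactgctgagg
Col11a1, chr3:114030290-114030539, plus strand: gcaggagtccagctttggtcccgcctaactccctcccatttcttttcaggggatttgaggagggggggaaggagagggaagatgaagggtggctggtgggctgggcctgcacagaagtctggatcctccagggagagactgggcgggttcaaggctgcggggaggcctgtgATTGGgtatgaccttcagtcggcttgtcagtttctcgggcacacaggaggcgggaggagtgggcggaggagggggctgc
Col24a1, chr3:145292222-145292471, plus strand: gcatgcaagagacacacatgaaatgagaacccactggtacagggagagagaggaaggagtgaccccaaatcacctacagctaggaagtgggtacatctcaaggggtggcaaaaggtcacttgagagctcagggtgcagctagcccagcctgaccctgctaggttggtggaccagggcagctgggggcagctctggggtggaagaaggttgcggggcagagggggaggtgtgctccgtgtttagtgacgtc

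Among the 7 members with a RefSeq entry, CCAAT lay in Col1a2 (first base at -109 from the start), Col5a3 (-122) and Col11a1 (-79), compared with 33.85% of 32851 promoters of the same length. TATAAA lay in Col3a1 alone (-117), compared with 12.37% of promoters. GGGCGG, the GC box bound by Sp1, was found in 5 of the 7 (Col1a2, Col5a1, Col5a3, Col11a1 and Col27a1; 32.74% of promoters). CAGACA, a Smad-binding sequence, was found in Col1a2, Col3a1 and Col5a1 (17.13%), and CATTCC, the sequence bound by TEAD factors, in Col3a1 (12.64%). Both strands were searched, none of these matches overlapped another, and Col24a1 held none of the 5 motifs in this window. Col1a1, Col2a1 and Col5a2 had no entry in the table.

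Levels are given as FPKM, read fragments corrected for the exon length of the gene and for library depth, as the authors deposited them. Whole fragments recovered from FPKM and exon length summed to between 14555508 and 23102751 per library, the lowest in CSA mouse 03. That library stood apart from the other CSA libraries. Its root mean square distance from them was 1.20 and 1.21 (log2 scale), against 0.505 between CSA mice 01 and 02 and 0.586 to 0.743 between mice of 1 group among the others. Over 14407 genes, its difference from the mean of mice 01 and 02 fell with the GC content of the transcript (Spearman's rho -0.642 across genes, which are not independent, against 0.12 for mouse 01 minus mouse 02). Values without this library are given beside results that it bears on. The targeted gene, Ccn2, stood at 709.5, 1108 and 480.1 FPKM in CFS, 435.6, 639.9 and 586.5 in CSS, 1013, 1105 and 563.5 in CFA, and 254.9, 331.1 and 398.6 in CSA. Ccn2 shares 23.2% of its exonic bases with a transcript on the opposite strand. It was lower in CSA than in CFA, without overlap (log2 difference -1.41, standard error (SE) 0.34, adjusted p = 0.00622), and the saline groups overlapped.

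Differences are of log2(FPKM + 0.1), fitted with limma over all 12 libraries, and the p-values were given a Benjamini-Hochberg adjustment across 14676 genes, those at 1 FPKM or more in at least 3 libraries. A difference is named higher or lower where its adjusted p is under 0.05, and a gene is called where its log2 difference is also over 1.5 in size. Adjusted p-values below come from this test, except those of the chain ratios. Of the 10 members 9 were tested, and Col2a1, which reached 1 FPKM in only 2 libraries, was not. Col11a1 and Col24a1 passed the filter only through the CSA libraries, so their difference from the other groups is bound up with having passed it. Nothing in the labels names a litter or batch, and p-values measure the spread between these mice. In bulk tissue, fewer cells of a type and less RNA per cell cannot be told apart.

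Together the members took a larger share of the library after Ang II, and the largest in CSA. They held 1.75% ± 0.21 of recovered fragments in CFS, 1.35% ± 0.15 in CSS, 2.82% ± 0.12 in CFA and 5.58% ± 0.61 in CSA (mean ± SD, n = 3 each). The ranges did not overlap, at 1.60% to 1.99% in CFS, 1.21% to 1.51% in CSS, 2.69% to 2.92% in CFA and 5.14% to 6.27% in CSA. Types I and III dominated, with 88.9% to 95.1% of the summed FPKM of the family in any library. Col1a1 alone was 40.0% to 42.6% of that sum in the saline libraries, 43.3% to 44.4% in CFA and 46.6% to 48.8% in CSA. Col5a1 was 4.34% to 4.60% of it in CFS, 5.25% to 6.68% in CSS, 4.04% to 4.48% in CFA and 1.58% to 3.23% in CSA. These levels depend on the exon length used, which for Col1a2 (12426 bases for all annotated exons merged, 5348 for the longest transcript) lowers FPKM more than for Col1a1 (6563 and 5930 bases), and this touches the order of genes but not the differences between groups. For Col3a1 the lengths were 9816 and 5564 bases, and it had more fragments than Col1a1 in CFS (329688 and 304654) and CSS (249468 and 245801), so their order in those groups turns with the length used. In CFA their fragments were 606149 and 606647, and there too Col3a1 stands above Col1a1 on the lengths of the longest transcripts. Col1a2 had 296794 fragments in CFS and 248203 in CSS, and on those lengths it also stands above Col1a1 in both groups.

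**Figure D1:**
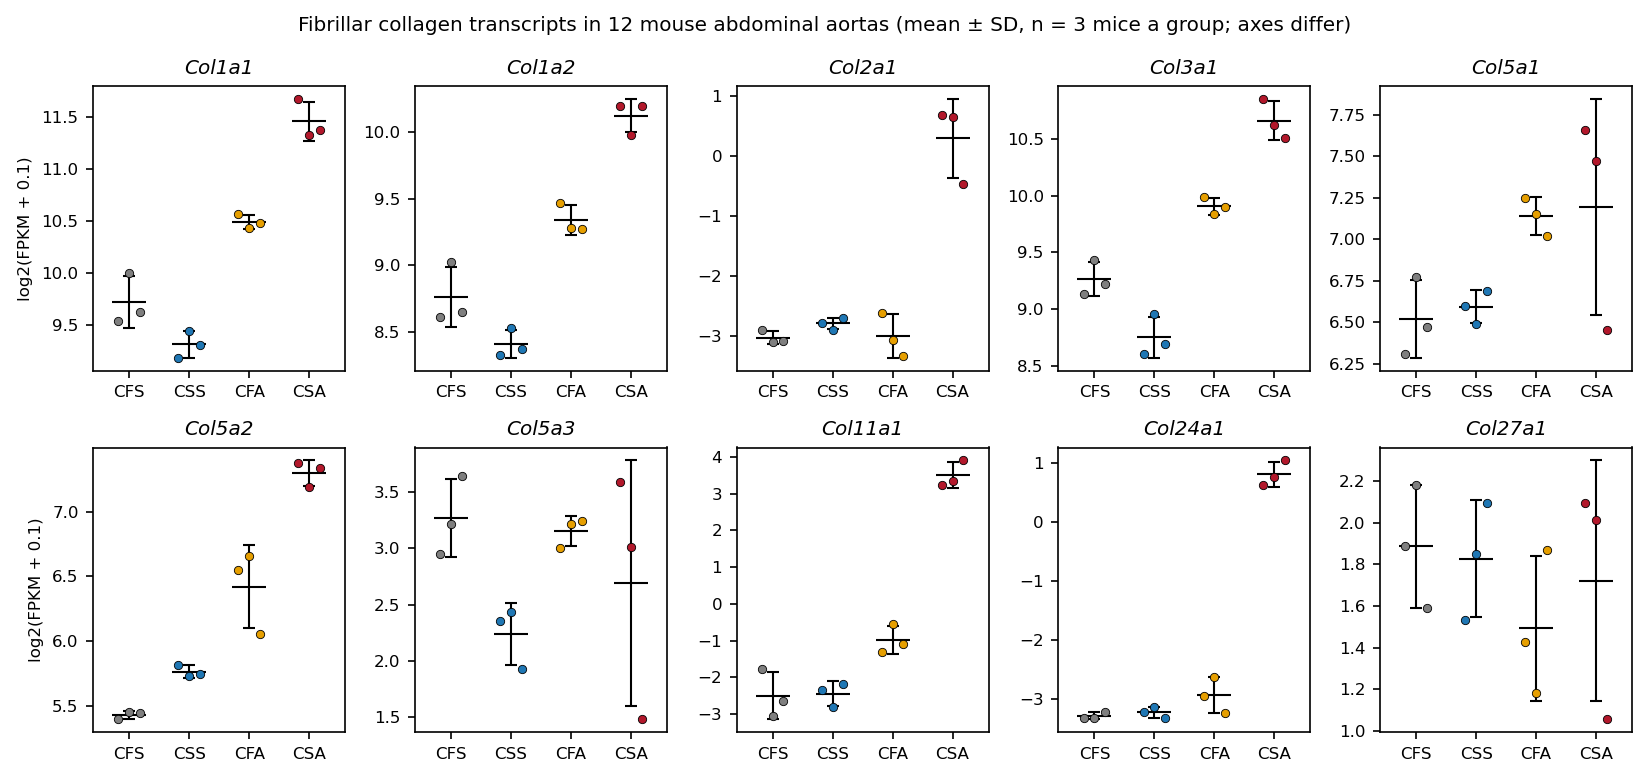
Level of each member in each of the 12 libraries, as log2(FPKM + 0.1) on axes that differ between genes; points are mice, the horizontal bar is the group mean and the whiskers the SD (n = 3). The 3 CSA mice lie above the other 9 for Col1a1, Col1a2, Col2a1, Col3a1, Col5a2, Col11a1 and Col24a1, whereas the CSA mice of Col5a1, Col5a3 and Col27a1 spread widely, with mouse 03, the rightmost point, lowest.

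Between CSA and CFA, the comparison of genotypes under Ang II, 2 of the 9 tested members were called, Col11a1 and Col24a1, both higher, where 8.95% of all tested genes were called higher. Both passed the filter only through CSA, so this count is bound up with the filter. No member that passed it without CSA was called. At an adjusted p under 0.05, 6 were higher (Col1a1, Col1a2, Col3a1, Col5a2, Col11a1 and Col24a1), against 19.5% of all tested genes, and none was lower. The same 6 had CSA mice all above the CFA mice, which held for 23.4% of tested genes. The median difference over the 9 was 0.79 on the log2 scale, and -0.04 over all tested genes.

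Col1a1 (chromosome 11, 94936224 to 94953042, GRCm38), which encodes the chain present as 2 copies in each type I molecule, had the highest FPKM of the members in every library on the merged exon lengths. On the lengths of the longest transcripts, Col3a1 stands above Col1a1 in CFS, CSS and CFA, and Col1a2 in CFS and CSS. In FPKM as deposited, the values of Col1a1 were as follows. Col1a1 stood at 742.6, 1023 and 785.8 FPKM in CFS, 579.8, 695.6 and 633.6 in CSS, 1512, 1383 and 1422 in CFA, and 3262, 2561 and 2647 in CSA. The groups were ordered CSS, CFS, CFA, CSA without overlap. The CSA mean of 2823 ± 382.5 FPKM was 1.96-fold that of CFA (log2 difference 0.96, SE 0.16, adjusted p = 0.000529) and 4.44-fold that of CSS (2.14, SE 0.16, adjusted p = 1.92e-06).

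Col1a2 (chromosome 6, 4504814 to 4541544), which encodes the other type I chain, followed the same order. Its FPKM was 390.9, 520.9 and 400.9 in CFS, 321.1, 368.3 and 330.1 in CSS, 710.1, 620.4 and 618.0 in CFA, and 1175, 1011 and 1176 in CSA. CSA exceeded CFA 1.73-fold (log2 difference 0.79, SE 0.14, adjusted p = 0.00121) and CSS 3.30-fold (1.72, SE 0.14, adjusted p = 4.54e-06).

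Col3a1 (chromosome 1, 45311538 to 45349706), the only chain of type III collagen, was 562.1, 689.8 and 596.8 FPKM in CFS, 389.2, 496.2 and 412.9 in CSS, 1014, 913.3 and 956.9 in CFA, and 1851, 1582 and 1456 in CSA. Again no 2 groups overlapped. The fold between CSA and CFA was 1.70 (log2 difference 0.76, SE 0.14, adjusted p = 0.00161) and that between CSA and CSS 3.77 (1.91, SE 0.14, adjusted p = 2.5e-06).

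Of the type V chains, only Col5a2 passed the test between CSA and CFA in all 12 libraries, and the difference between the chains was not tested by limma. Col5a2 (chromosome 1, 45374321 to 45503282, next to Col3a1 and on the opposite strand) was 42.1, 43.7 and 43.6 FPKM in CFS, 56.5, 53.1 and 53.6 in CSS, 93.8, 100.9 and 66.4 in CFA, and 165.5, 145.7 and 161.2 in CSA. The CSS mice were all above the CFS mice, where those of types I and III were all below. CSA was 1.81-fold CFA (log2 difference 0.88, SE 0.15, adjusted p = 0.000811) and 2.90-fold CSS (1.53, SE 0.15, adjusted p = 1.3e-05).

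Col5a1 (chromosome 2, 27886425 to 28039514), whose chain is found in nearly all type V molecules, was 79.4, 109.3 and 88.9 FPKM in CFS, 97.0, 89.8 and 103.0 in CSS, 152.2, 142.1 and 129.6 in CFA, and 202.1, 177.4 and 87.6 in CSA. CSA mice 01 and 02 lay above every CFA mouse and mouse 03 below, so the groups overlapped (log2 difference from CFA 0.05, SE 0.27, adjusted p = 0.889). Without mouse 03 the difference was 0.43 (adjusted p = 0.0296), and with the GC trend of each library removed it was 0.40 (adjusted p = 0.017). Against CSS it was 0.60 (SE 0.27, adjusted p = 0.0863), and 0.97 without mouse 03 (adjusted p = 0.000246).

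Col5a3 (chromosome 9, 20770050 to 20815067), which encodes a less common type V chain, was 7.64, 9.22 and 12.4 FPKM in CFS, 5.00, 5.32 and 3.71 in CSS, 7.92, 9.22 and 9.35 in CFA, and 11.9, 7.95 and 2.69 in CSA. The CSA mice ran from below every other mouse to just under the highest CFS mouse. The difference of CSA from CFA was -0.46 on the log2 scale (SE 0.43, adjusted p = 0.416) and turned to 0.14 without mouse 03 (adjusted p = 0.643). Against CSS it was 0.45 (SE 0.43, adjusted p = 0.411), and 1.06 without mouse 03 (adjusted p = 0.00357).

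Col11a1 (chromosome 3, 114030540 to 114220718), a type XI chain that can also join type V molecules, was near the limit of detection under saline and was called higher in CSA. Its FPKM was 0.191, 0.0210 and 0.0592 in CFS, 0.0971, 0.0423 and 0.123 in CSS, 0.303, 0.581 and 0.370 in CFA, and 9.32, 10.1 and 14.8 in CSA. The saline groups overlapped, the CFA mice were all above them and the CSA mice all above CFA. In fragments this was 63 in CFS, 67 in CSS, 341 in CFA and 8046 in CSA. CSA exceeded CFA by 4.48 on the log2 scale (SE 0.41, adjusted p = 1.27e-05) and CSS by 5.94 (SE 0.41, adjusted p = 1.46e-06). As a ratio of fragment rates, which needs no pseudocount, CSA was 26.7 times CFA (95% interval 23.9 to 29.8, counting error only) and 124.4 times CSS (97.8 to 160.7).

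Col24a1 (chromosome 3, 145292472 to 145552011) was read by 1 fragment in CFS and 3 in CSS, summed over the 3 mice of each, by 16 in CFA and by 711 in CSA. In FPKM the CSA mice stood at 1.45, 1.60 and 1.96 and the CFA mice at 0.0301, 0.0618 and 0.00619. CFS mice 68 and 69 and CSS mouse 56 were at 0, where a count of 0 allows up to 3 fragments, or 0.0213, 0.0210 and 0.0181 FPKM in those libraries. The log2 difference of CSA from CFA was 3.75 (SE 0.53, adjusted p = 0.000224). For Col24a1, CSA against CFA gave 1.37 with a pseudocount of 1, under the fold limit, so that it was no longer called. The ratio of fragment rates was 50.2 (95% interval 30.7 to 88.3, counting error only). Compared with CSS the ratio was 245.5, with the wide interval of 83.7 to 1193 that 3 fragments give.

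Col2a1 (chromosome 15, 97975602 to 98004695), the cartilage collagen, was 0.0351, 0.0174 and 0.0188 FPKM in CFS, 0.0466, 0.0350 and 0.0547 in CSS, 0.0646, 0.0204 and 0 in CFA, and 1.503, 1.469 and 0.621 in CSA. The CSA mice were all above the others (exact permutation p = 0.1 against CFA, the smallest that 3 against 3 can give), on 658 fragments against 17 in CFA and 25 in CSS. The ratio of fragment rates of CSA was 43.7 to CFA (95% interval 27.1 to 75.5, counting error only) and 27.3 to CSS (18.3 to 42.4). The 0 in CFA mouse 74 allows up to 3 fragments, or 0.0153 FPKM there. Of 6 chondrogenic markers, 2 were higher in CSA than in CFA, 1 was lower, 2 did not pass the test and Cnmd was not tested. Sox9, the transcription factor that drives Col2a1, was 0.91, 0.81 and 0.83 FPKM in CFA and 1.66, 1.17 and 1.75 in CSA (log2 difference 0.76, adjusted p = 0.0506, and 0.92, adjusted p = 0.0391, without CSA mouse 02). With each mouse left out, its difference ranged from 0.66 to 0.92 and its adjusted p from 0.0391 to 0.122. Acan, the large cartilage proteoglycan, was 1.48, 4.98 and 0.87 FPKM in CFA and 4.46, 3.84 and 3.83 in CSA (log2 difference 1.06, adjusted p = 0.0929, and 1.74, adjusted p = 0.000451, without CFA mouse 72). For Acan the same fits gave 0.55 to 1.74, with adjusted p-values of 0.000451 to 0.338. Comp, a cartilage oligomeric matrix protein, was higher in CSA (log2 difference 1.19, adjusted p = 0.000904), as was Matn3, a cartilage matrilin (2.21, adjusted p = 0.00397), which passed the filter only through CSA. Hapln1, the link protein that holds aggrecan to hyaluronan, was called lower (-3.17, adjusted p = 3.19e-06). In CSS against CFS, Sox9 differed by 1.27, Acan by 1.62, Comp by 1.16, Matn3 by 0.47 and Hapln1 by 0.17, and none passed the adjusted p. In CSA against CSS, Sox9 differed by 0.24 (adjusted p = 0.513) and Acan by 0.97 (adjusted p = 0.113). There Comp differed by 1.16 (adjusted p = 0.000892), Matn3 by 1.77 (adjusted p = 0.012) and Hapln1 by -3.29 (adjusted p = 1.65e-06). The summed level of the 6 was 8.71 to 11.1 FPKM in CFS, 19.0 to 21.7 in CSS, 16.6 to 22.6 in CFA and 31.9 to 52.9 in CSA. Their part in the levels of Col2a1 and Col11a1 was not tested.

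Col27a1 (chromosome 4, 63214004 to 63334991) showed no ordered pattern. It was 3.602, 4.437 and 2.908 FPKM in CFS, 2.80, 3.51 and 4.18 in CSS, 2.59, 2.17 and 3.56 in CFA, and 4.18, 3.94 and 1.98 in CSA, and neighbouring groups overlapped in each case. The log2 difference of CSA from CFA was 0.23 (SE 0.30, adjusted p = 0.575), and 0.56 without mouse 03 (adjusted p = 0.0792). Against CSS it was -0.11 (SE 0.30, adjusted p = 0.794), and 0.23 without mouse 03 (adjusted p = 0.456).

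The members that CSA mouse 03 held low were those with GC-rich transcripts. On the log2 scale its level minus the mean of mice 01 and 02 was -1.82 for Col5a3 (61.6% GC in the longest annotated transcript), -1.14 for Col2a1 (62.2%), -1.11 for Col5a1 (58.0%) and -1.0 for Col27a1 (59.4%). It was 0.61 for Col11a1 (48.0%), 0.35 for Col24a1 (51.0%) and 0.05 for Col5a2 (49.6%). Col1a1 did not follow this order, at -0.13 with 58.9% GC, nor did Col3a1, at -0.23 with 52.5%, and Col1a2 was 0.11 with 55.7%. The part of GC content in these values was not tested beyond the fit with the trend removed.

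**Figure D2:**
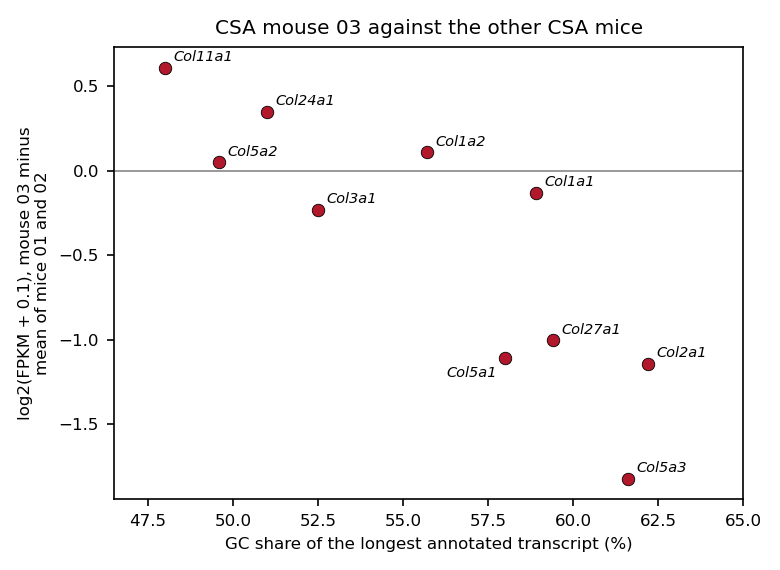
Level in CSA mouse 03 minus the mean of CSA mice 01 and 02, as a difference of log2(FPKM + 0.1), plotted for the 10 members against the GC percentage of the longest annotated transcript. Col5a3, Col2a1, Col5a1 and Col27a1, at 58.0% to 62.2% GC, lie at -1.0 or below, and Col1a1 at 58.9% GC lies at -0.13.

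In the comparison of Ang II with saline in CCN2SMC∆ mice, CSA against CSS, 6 members were called, all higher (Col1a1, Col1a2, Col3a1, Col5a2, Col11a1 and Col24a1), where 10.9% of tested genes were called higher, 22.3% were higher at an adjusted p under 0.05 and 26.3% had all CSA mice above the CSS mice. This comparison shares the CSA mice with that against CFA, and here too Col11a1 and Col24a1 passed the filter only through CSA. Leaving out each mouse in turn left all 6 called, except that without CSA mouse 01 the difference of Col5a2 was 1.49, just inside the fold limit, and 5 were called. It was also 1.49 for Col5a2, CSA against CSS, with array weights, which weigh each library by how closely it follows its group in these same values. CSA mouse 03 then had a weight of 0.068 and CSA mouse 02 one of 2.503. For Col24a1, CSA against CSS gave 1.40 with a pseudocount of 1, under the fold limit, and a filter at a mean FPKM of 5 left out Col11a1 and Col24a1. With each mouse left out, the difference of Col1a1 ranged from 2.04 to 2.21 on the log2 scale.

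In CCN2fl/fl mice the same infusion, CFA against CFS, gave no called member by limma, in a comparison where 0.0273% of all tested genes were called. At an unadjusted p under 0.05, 6 members were higher (5.61% of tested genes), and the same 6 had all CFA mice above all CFS mice (9.44% of tested genes). They were Col1a1 (log2 difference 0.77, SE 0.16, adjusted p = 0.106), Col1a2 (0.58, SE 0.14, adjusted p = 0.172), Col3a1 (0.65, SE 0.14, adjusted p = 0.132), Col5a1 (0.62, SE 0.27, adjusted p = 0.494), Col5a2 (0.99, SE 0.15, adjusted p = 0.0519) and Col11a1 (1.51, SE 0.41, adjusted p = 0.215). Col5a2 reached an adjusted p of 0.00224 without CFA mouse 74, at a difference of 1.17. In that fit 152 of 14676 tested genes passed the adjusted p in the higher direction, against 4 with all mice. Over the fits that each left out 1 mouse, the difference of Col5a2 ranged from 0.87 to 1.17 and its adjusted p from 0.00224 to 0.254. With array weights, 5 members passed the adjusted p, where 2.29% of tested genes passed it in the higher direction under that setting. CFA mouse 71 then had a weight of 2.48, against 0.619 and 0.646 for CFA mice 72 and 74, so the CFA side of that fit leans mostly on mouse 71. Col24a1, at 16 fragments against 1, Col5a3 and Col27a1 overlapped between these groups.

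Under saline, CSS against CFS, no member was called by limma, in a comparison where 0.0136% of tested genes were called, and none reached an adjusted p under 0.05. At an unadjusted p under 0.05 stood 5 members (6.30% of tested genes). All CSS mice lay below all CFS mice for 4 of them (9.31% of tested genes), with log2 differences of -0.41 for Col1a1 (SE 0.16, adjusted p = 0.675), -0.35 for Col1a2 (SE 0.14, adjusted p = 0.701), -0.51 for Col3a1 (SE 0.14, adjusted p = 0.453) and -1.03 for Col5a3 (SE 0.43, adjusted p = 0.719). Col5a2 went the other way, with all CSS mice above all CFS mice (11.1% of tested genes) and a log2 difference of 0.33 (SE 0.15, adjusted p = 0.79).

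**Figure D3:**
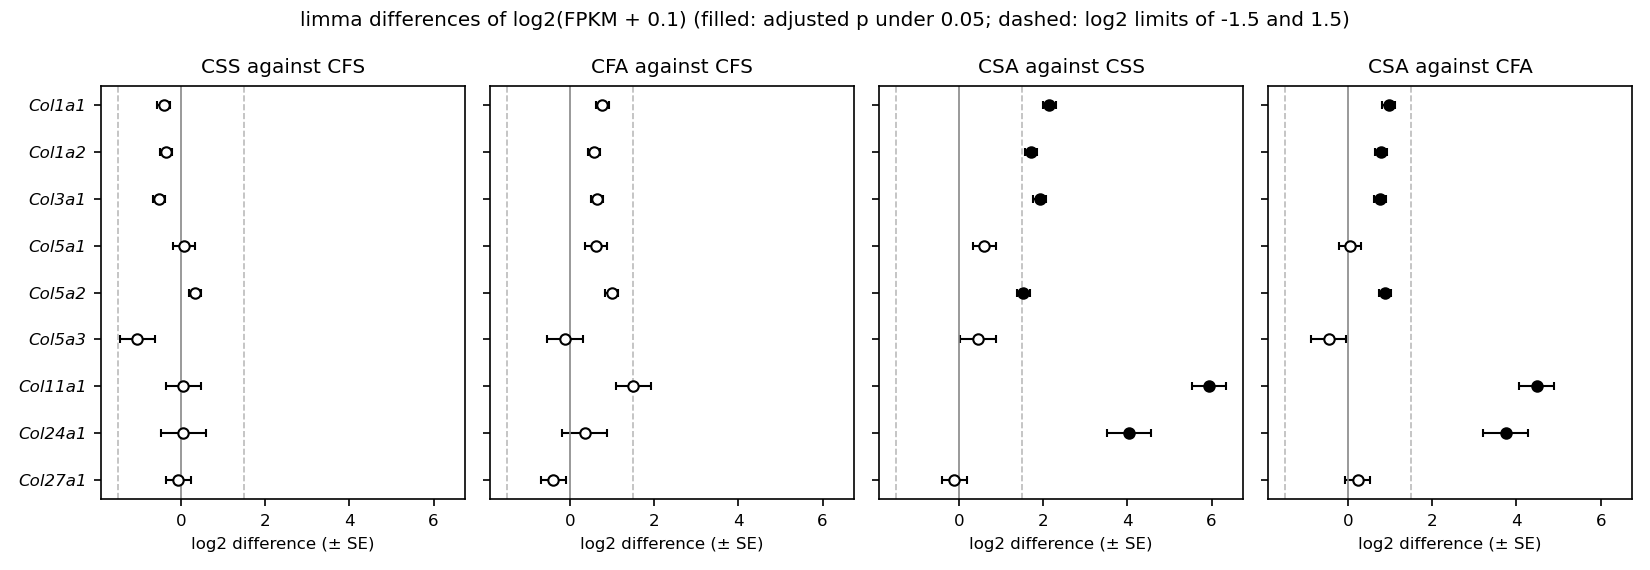
Differences of log2(FPKM + 0.1) with SE for the 9 tested members in 4 comparisons of 3 mice with 3 mice; filled points have an adjusted p under 0.05 and dashed lines mark the fold limit. The CSS against CFS and CFA against CFS panels have no filled point, and in the CSA panels Col5a1, Col5a3 and Col27a1 stay unfilled.

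The effect of genotype differed with treatment for 5 members, tested as the interaction, the CSA against CFA difference minus the CSS against CFS difference. On the log2 scale it was 1.37 for Col1a1 (SE 0.22, adjusted p = 0.00116), 1.14 for Col1a2 (SE 0.20, adjusted p = 0.00209), 1.27 for Col3a1 (SE 0.20, adjusted p = 0.00119), 4.43 for Col11a1 (SE 0.58, adjusted p = 0.000383) and 3.69 for Col24a1 (SE 0.75, adjusted p = 0.00444). Of all tested genes, 12.8% had a higher interaction at an adjusted p under 0.05, and 7.89% also passed the fold limit, which among members Col11a1 and Col24a1 did. Both passed the filter only through CSA, so their interaction is bound up with having passed it. For Col1a1, Col1a2 and Col3a1, CSS lay below CFS while CSA lay above CFA. Col5a2 had an interaction of 0.54 (SE 0.21, adjusted p = 0.0854), and 0.66 without CFA mouse 72 (adjusted p = 0.0414). Over the fits that each left out 1 mouse, it ranged from 0.36 to 0.66, with adjusted p-values of 0.0414 to 0.157. Col5a3 had an interaction of 0.57 (SE 0.60, adjusted p = 0.532), and 1.18 without CSA mouse 03 (adjusted p = 0.0159). Its range over the same fits was 0.12 to 1.18, with adjusted p-values of 0.0159 to 0.879.

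Within a library, the ratio of one chain to another removes the scaling between libraries. A set of 5 ratios was compared in 4 ways, with p-values adjusted over those 20 tests. The exact two-sided permutation test of 3 against 3 cannot go below p = 0.1, so the lowest adjusted p was 0.154 and no ratio could pass 0.05. Col1a1 to Col1a2 was 1.90, 1.96 and 1.96 in CFS and 1.81, 1.89 and 1.92 in CSS. After Ang II it was 2.13, 2.23 and 2.30 in CFA and 2.78, 2.53 and 2.25 in CSA, above the saline mice of the same genotype in every mouse (exact permutation p = 0.1, adjusted p = 0.154 in each). CSA and CFA overlapped in this ratio. Col3a1 to Col1a1 was 0.67 to 0.76 in CFS, 0.65 to 0.71 in CSS, 0.66 to 0.67 in CFA and 0.55 to 0.62 in CSA, with CSA below CFA in every mouse (log2 difference -0.21, exact permutation p = 0.1). The levels of both ratios rest on the merged exon lengths. On those of the longest transcripts, Col1a2 stands above Col1a1 in CFS and CSS. Col3a1 then stands above Col1a1 in CFS, CSS and CFA. The differences between groups do not change with the lengths.

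For ratios that involve type V chains, Col5a1 to Col1a1 was 0.107, 0.107 and 0.113 in CFS, 0.167, 0.129 and 0.163 in CSS, 0.101, 0.103 and 0.0912 in CFA, and 0.0620, 0.0693 and 0.0331 in CSA. It thus stood above CFS in all CSS mice (log2 difference 0.48) and below CFA in all CSA mice (-0.91, and -0.58 without mouse 03), each with an exact permutation p of 0.1. Col5a2 to Col5a1 was 0.40 to 0.53 in CFS, 0.52 to 0.59 in CSS and 0.51 to 0.71 in CFA. In CSA it was 0.82, 0.82 and 1.84, the last in mouse 03, above CFA by 0.82 on the log2 scale (exact permutation p = 0.1) and by 0.43 without that mouse. Col5a3 to Col5a1 was lower in every CSS mouse (0.0360 to 0.0592) and every CFA mouse (0.0521 to 0.0721) than in any CFS mouse (0.0844 to 0.139). The CSA mice, at 0.0590, 0.0448 and 0.0308, also lay below every CFS mouse and overlapped CSS and CFA.

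**Figure D4:**
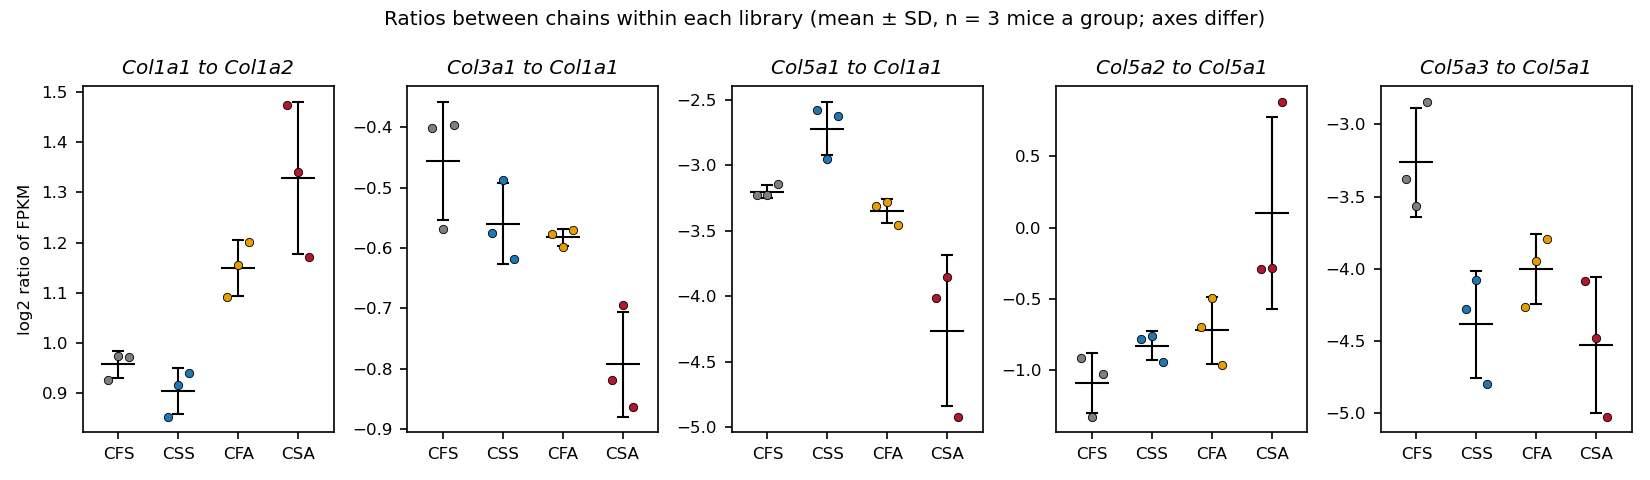
Log2 ratios of FPKM between fibrillar collagen chains within each library, on axes that differ between ratios; points are mice, bars the group mean and whiskers the SD (n = 3). The CSA mice lie lowest for Col3a1 to Col1a1 and Col5a1 to Col1a1 and highest for Col5a2 to Col5a1, where mouse 03 stands well above the others.

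Genes that make, trim, link, cut and bind collagen fibrils were read from lists in the comparison of CSA with CFA, where 8.27% of all tested genes were called lower and 21.2% were lower at an adjusted p under 0.05, and the median log2 difference was -0.04. Among 20 tested genes of collagen folding and modification, 4 were higher and 4 lower, with a median difference of 0.07. Without CSA mouse 03, 8 were higher and 3 lower, with a median of 0.22, where the median over all tested genes was 0.01. In that fit 3493 of 14676 tested genes were higher and 3655 lower, against 2864 and 3114 with all mice. P4ha3, a subunit of prolyl 4-hydroxylase, was called higher (log2 difference 2.59, SE 0.41, adjusted p = 0.000513), as was Plod2, the lysyl hydroxylase of the telopeptides (1.59, SE 0.23, adjusted p = 0.000251, and 1.32, inside the fold limit, without CSA mouse 03). P3h2, a prolyl 3-hydroxylase, was called lower (-3.04, SE 0.17, adjusted p = 6.9e-07). Serpinh1, the collagen-specific chaperone, differed by 0.23 on the log2 scale (adjusted p = 0.45), and by 0.48 without CSA mouse 03 (adjusted p = 0.0462). With each mouse left out, its difference ranged from 0.07 to 0.48 and its adjusted p from 0.0462 to 0.85.

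Of 7 tested genes of procollagen processing, 3 were higher and 3 lower, with a median log2 difference of 0.44, and without CSA mouse 03 these were 4, 2 and 0.67. Over all 14676 tested genes, the fit without that mouse had 3493 higher and 3655 lower. Tll1, a protease that removes the C-propeptide, was called higher (1.94, SE 0.46, adjusted p = 0.00594) and passed the filter only through CSA. Pcolce2, an enhancer of that cleavage, was called lower (-2.62, SE 0.14, adjusted p = 6.13e-07), and Adamts14, which removes the N-propeptide, was lower (-1.39, SE 0.30, adjusted p = 0.00341). The other lower gene was Adamts2 (-0.56, adjusted p = 0.0381, and -0.38, adjusted p = 0.0863, without CSA mouse 03). Adamts3, which was also higher (1.17, adjusted p = 0.00873), passed the filter only through CSA. Bmp1, the main C-proteinase, was higher by 0.75 on the log2 scale (adjusted p = 0.00556).

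Of 5 tested collagens that lie on the surface of fibrils, 1 was called higher and 2 lower, and 1 higher and 1 lower without CSA mouse 03. In the fit without that mouse, 1321 of 14676 tested genes were called higher and 1061 lower. Col16a1 differed by 0.13 (adjusted p = 0.848), and was higher by 0.88 (adjusted p = 0.00122) without that mouse. Col12a1, of type XII, rose from 3.73, 3.74 and 2.74 FPKM in CFA to 23.2, 25.5 and 35.8 in CSA (log2 difference 3.0, SE 0.25, adjusted p = 6.21e-06). Col19a1 was called lower (-3.80, SE 0.21, adjusted p = 6.86e-07), as was Col20a1 (-1.72, SE 0.37, adjusted p = 0.0036, and -1.22, inside the fold limit, without CSA mouse 03). Of 5 cross-linking enzymes, 2 were higher and 1 lower, with none past the fold limit. Lox, lysyl oxidase, rose from 186.6, 174.2 and 112.3 FPKM to 292.9, 302.2 and 513.2 (log2 difference 1.21, SE 0.25, adjusted p = 0.00235). The related oxidase Loxl3 was higher (0.55, SE 0.18, adjusted p = 0.0333) and Loxl1 lower (-1.08, SE 0.32, adjusted p = 0.0187). Neither passed the adjusted p with every mouse left out in turn. In the comparison of Loxl1, CSA against CFA, the adjusted p missed the threshold without CFA mouse 71 (-0.96, adjusted p = 0.0687) or 72 (-0.97, adjusted p = 0.0623), and the difference was -0.67 (adjusted p = 0.024) without CSA mouse 03. In that of Loxl3, CSA against CFA, it missed the threshold without CFA mouse 71 (0.60, adjusted p = 0.0556) or 74 (0.44, adjusted p = 0.123) and without CSA mouse 01 (0.46, adjusted p = 0.0963) or 02 (0.42, adjusted p = 0.111).

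All 8 genes of collagen uptake and cleavage were tested, and 5 were higher and none lower, with a median log2 difference of 1.01, and 6 were higher without CSA mouse 03. The collagenase Mmp13 stood at 0.0515, 0.635 and 0.247 FPKM in CFA and 29.2, 33.9 and 44.2 in CSA (log2 difference 6.71, SE 0.62, adjusted p = 1.33e-05). Mmp8, the collagenase of neutrophils, differed by 4.61 (SE 0.68, adjusted p = 0.000283), and both passed the filter only through CSA. Mmp14, a membrane-bound collagenase, was called higher as well (1.60, SE 0.25, adjusted p = 0.000429, and 1.37, inside the fold limit, without CSA mouse 01). Of 8 tested collagen receptors, 3 were called higher, Lair1 (4.44, adjusted p = 1.28e-05), Itga2 (2.43, adjusted p = 0.000159) and Itga11 (1.57, adjusted p = 0.000404). At an adjusted p under 0.05, 4 were lower, so that the median was -0.90. Those lower were Ddr2 (-1.26, adjusted p = 0.000637) and Itgb1 (-0.93, adjusted p = 0.00215). So were Itga10 (-0.91, adjusted p = 0.0093) and Itga1 (-0.90, adjusted p = 0.00491). Without CSA mouse 03, 5 were lower, and the median was -0.60. That fit had 3655 of 14676 tested genes lower, against 3114 with all mice, and 3493 higher, against 2864. Itga11 came inside the fold limit without CFA mouse 74 (1.40) or CSA mouse 01 (1.43), with the adjusted p still under 0.05. Lair1 and Itga2 passed the filter only through CSA. Lair1 is an inhibitory receptor of leukocytes, and Itga2 and Itga11 are integrin subunits that bind fibrillar collagen.

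**Figure D5:**
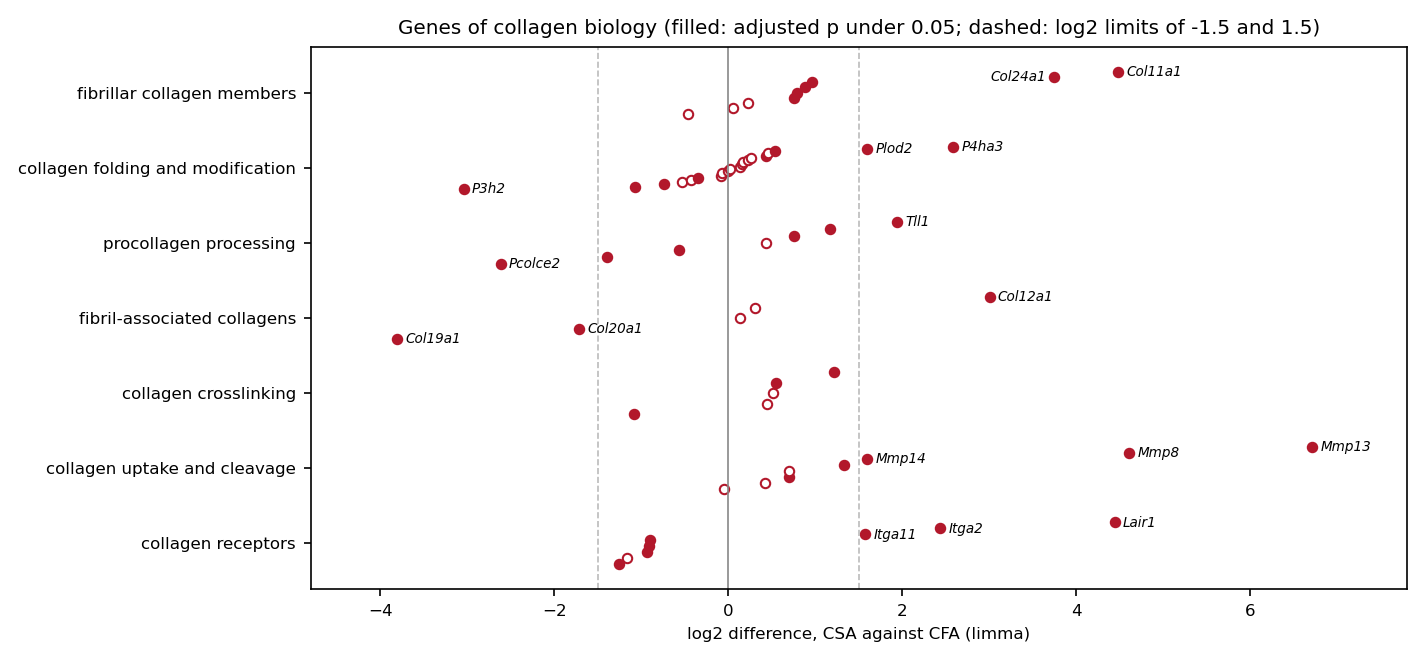
Log2 difference between CSA and CFA of each tested gene in 7 lists of collagen biology, 1 point a gene, filled where the adjusted p is under 0.05; dashed lines mark the fold limit and genes beyond it are named. Fibrillar collagens reach from -0.46 to 4.48, and Mmp13 lies furthest to the right at 6.71.

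Markers of the cells of the wall moved between the same groups. The summed FPKM of 8 SMC markers was 5466 to 8323 in CFA and 793 to 937.5 in CSA, with all 8 called lower, among them Myh11 (log2 difference -4.18, adjusted p = 8.05e-08) and Acta2 (-2.86, adjusted p = 1.54e-06). None of the 8 was at 0 in all mice of a group. The sum of 10 fibroblast markers was 1064 to 1196 in CFA and 1187 to 1695 in CSA, with 1 higher and 5 lower. CSA mouse 03 had the highest sum, and the other CSA mice stood at 1187 and 1212. Lum was higher (log2 difference 1.44, adjusted p = 0.000222) and Dpt, Pi16, Cd34, Tcf21 and Scara5 were lower. Pdgfra differed by 0.38 (adjusted p = 0.219) and Dcn by 0.54 (adjusted p = 0.183), which fell to 0.15 (adjusted p = 0.566) and 0.12 (adjusted p = 0.597) without mouse 03. Macrophage and monocyte markers summed to between 229.9 and 455.2 FPKM in CFA and between 1424 and 1702 in CSA, with 7 of 8 called higher, among them Ptprc (3.74, adjusted p = 1.39e-05) and Adgre1 (2.93, adjusted p = 8.64e-06). Neutrophil markers summed to between 11.01 and 27.8 FPKM in CFA and between 508.1 and 555.6 in CSA, with all 5 called higher. All 5 T cell markers and 1 of 2 tested B cell markers were called higher too, but these 7 tested genes, like Cxcr2 and Retnlg among the neutrophil markers and Itgam among those of macrophages, passed the filter only through the CSA libraries. Of endothelial markers 3 of 5 were called lower, of adipocyte markers 1 of 5 and of erythrocyte markers 3 of 3, though 0 of the 3 without CSA mouse 03, and none of 4 tested skeletal muscle or 4 Schwann cell markers was called. The part of these changes in the levels of Col1a1, Col1a2, Col3a1 and the other members was not tested.

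The genes whose pattern over the 12 libraries was most like a member were found by Pearson's r of log2(FPKM + 0.1), as a description over libraries that share 4 groups. They were Angptl1 (0.982), Igf1 (0.973) and Taf6l (0.969) for Col1a1, of which Angptl1 passed the filter only through CSA. For Col5a1 they were Shc2 (0.943), Col16a1 (0.936) and Slc27a3 (0.929), and for Col27a1 Snx15 (0.906), Gm15265 (0.899) and Zfyve26 (0.898). All of those of Col5a1 and Col27a1 were also lower in CSA mouse 03 than in CSA mice 01 and 02.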

How the data were processed

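The authors deposited 1 table of FPKM, with 1 column per mouse and no pooling, and 0 columns were left unused. Libraries were read as pairs of 150 bases, and the submitters' processing notes name HISAT2 2.0.5, StringTie 1.3.3b, featureCounts 1.5.0-p3 and the mm10 build. Groups came from the sample titles. Symbols and merged exon lengths came from GENCODE M21 (GRCm38) and matched 54409 of 55092 features. With those lengths, 98.36% to 98.74% of values under 100 fragments came out whole (within 0.1), and their sum was taken as depth. The median log ratio to the mean library was the same in all 12 columns, so some adjustment between libraries had been made before deposit, and its method is not given in the sources used here.

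The test was limma 3.58.1 in R 4.3.3 (eBayes, trend and robust both on), on log2(FPKM + 0.1), with 1 coefficient per group over 12 libraries. The study's methods name DEG-Seq, a count test, with a limit on p and a log2 fold change over 1.5, and since FPKM are not counts, limma was used with those limits and an adjusted p under 0.05. The pseudocount understates fold changes of low genes. The 18 lists of other genes hold 130 genes. Named were all members, the 3 genes with the largest absolute change between CSA and CFA in each list of collagen biology, the 3 genes most like Col1a1, Col5a1 and Col27a1, Ccn2, Myh11, Acta2, Pdgfra, Dcn, Ptprc and Adgre1. The chondrogenic markers, other fibroblast markers, Serpinh1, Bmp1, Adamts2, Adamts3, Col16a1 and the lower collagen receptors were added after their values were seen. So were the markers that passed the filter only through CSA. The members and lists were chosen with earlier results of these data known. Intervals are exact binomial (Clopper-Pearson, 95%) and, like the limit of 3 fragments, cover counting error only. The fit was first tested on simulated data. Python 3.11.15, pandas 2.3.3, numpy 2.4.6, scipy 1.17.1 and matplotlib 3.10.9 were used for summaries. Alternatives were another pseudocount, other filters, scalings and eBayes settings, array weights, a fit of only the 2 groups compared, other call limits and leaving out each mouse. Removal of each library's GC trend (lowess, span 0.3), the values of Col2a1 and the leave-one-out range of the ratios were added after seeing the data.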

Additional observations from a re-analysis of the deposited data

Results flagged for a closer look

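For 5 members the effect of genotype under Ang II differed from that under saline in the test of the interaction. The difference between the effects, on the log2 scale, was 1.37 for Col1a1, 1.14 for Col1a2, 1.27 for Col3a1, 4.43 for Col11a1 and 3.69 for Col24a1. Leaving out each mouse in turn gave 1.23 to 1.46 for Col1a1, 1.01 to 1.22 for Col1a2, 1.17 to 1.37 for Col3a1, 4.07 to 4.71 for Col11a1 and 3.54 to 3.84 for Col24a1, with adjusted p-values from limma of 0.000435 to 0.0145 over these fits. Col11a1 and Col24a1 passed the filter only through CSA, so their interaction is bound up with having passed it. What lies behind the differences was not tested.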

How the results depend on the processing

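No paired analysis was possible because the groups share no mouse numbers. Members called in CSA against CFA numbered 1 with a pseudocount of 1 (Col11a1, as Col24a1 fell under the fold limit), 0 at a mean FPKM of at least 5, which leaves out Col11a1 and Col24a1, and 6 with no fold limit. In the higher direction, the same settings gave 918 of 14676, 452 of 7780 and 2864 of 14676 tested genes. For the interaction, members numbered 1, 0 and 5, and tested genes in the higher direction 892 of 14676, 448 of 7780 and 1873 of 14676. At a mean FPKM of at least 5, 3 members passed the adjusted p of the interaction, where 949 of 7780 tested genes passed it in the higher direction. In CFA against CFS, 1 member was called by an unadjusted p with the fold limit. There 1 passed the adjusted p with a pseudocount of 1, a mean FPKM of at least 5, equal FPKM sums or the GC trend removed, 5 with array weights, and 0 to 1 with each mouse left out. Tested genes that passed it in the higher direction numbered, in that order, 8 of 14676, 12 of 7780, 17 of 14676 and 9 of 14676. They numbered 336 of 14676 with array weights and 0 to 152 with each mouse left out. Ccn2 passed the adjusted p in CSA against CSS with array weights (-0.85) and in a fit of those 2 groups (-0.76), and in the interaction with array weights (-1.26).

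Signs turned only for differences that did not pass the test. With array weights these were Col5a3, CSA against CFA (0.10), Col11a1, CSS against CFS (-0.0539), Col27a1, CSA against CSS (0.18) and Col5a1, interaction (0.20). With the GC trend removed they were Col5a3, CSA against CFA (0.0851), Col5a1, CSS against CFS (-0.0136), Col27a1, CSA against CSS (0.40) and Col5a1, interaction (0.42). Equal FPKM sums turned Col27a1, CSS against CFS (0.0011) and Col5a1, interaction (0.0020), and a pseudocount of 1 turned Col11a1, CSS against CFS (-0.0016). Leaving out each mouse gave ranges across 0 for Col5a1 (-0.18 to 0.43) and Col5a3 (-0.91 to 0.14) in CSA against CFA, and for Col5a1 (-0.031 to 0.20), Col11a1 (-0.22 to 0.41) and Col27a1 (-0.21 to 0.0895) in CSS against CFS. The same held for Col5a3 (-0.28 to 0.0692), Col2a1 (-0.17 to 0.19) and Ccn2 (-0.0482 to 0.56) in CFA against CFS, for Col27a1 (-0.29 to 0.23) and the ratio of Col5a3 to Col5a1 (-0.37 to 0.10) in CSA against CSS, and for Col5a1 in the interaction (-0.25 to 0.35). The cause was not tested. Few fragments were read for Col24a1 and Col2a1 outside CSA, which limits their values there.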
